A study of Mus musculus with 2 samples.

Results

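The genes of the basement membrane and the surrounding extracellular matrix were followed through the cell classes of the mouse retina with and without diabetes. The set holds 32 genes chosen by name, of 17087 genes in the deposited count table, and all 32 were present in it. The rule itself uses no measured value, though the set was drawn up with earlier results of these data known. By role they are 2 collagen IV chains, 6 laminin chains, 5 nidogens and heparan sulfate proteoglycans, 5 fibrillar and short-chain collagens, 2 small leucine-rich proteoglycans, 7 matricellular and adhesive glycoproteins, and 5 proteases, protease inhibitors and sulfatases.

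The STZ group consisted of male C57BL/6J mice given streptozotocin, a toxin of the insulin-producing beta cells of the pancreas, by intraperitoneal injection of 55 mg/kg at 3 to 5 weeks of age. They counted as diabetic above a blood glucose of 300 mg/dL and lived with high glucose for 25 weeks before the retina was taken. The control group is labelled untreated and of strain C57BL/6, with no genetic change named in either group. Cells of 3 retinas were pooled into 1 library per group for 10x Chromium 3′ single-cell sequencing, so there is no replicate, no test was possible, and every difference below is between these 2 libraries. Intervals are exact, at 95%, and cover counting error only, not the spread between animals.

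A basement membrane is a thin sheet of matrix on which epithelial, endothelial and glial cells rest. Laminin trimers and collagen IV form its main networks, and nidogens and heparan sulfate proteoglycans such as perlecan link them. In the retina such sheets wrap every capillary between endothelial cell and pericyte, form the inner limiting membrane under the Müller glia endfeet, and lie under the pigment epithelium as part of Bruch's membrane. Thickening of the capillary basement membrane and loss of pericytes are known features of diabetic retinopathy.

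Control gave 7169 cells with a median of 3800 unique molecular identifiers (UMIs, each standing for 1 captured RNA molecule), and STZ gave 12393 cells with a median of 2062. After filters 5288 control and 8232 STZ cells were kept, and 21 cell barcodes occurred in both libraries. Clusters were made without the 32 genes and named from marker genes, with the ending -like since the names are rebuilt. At least 50 cells in both libraries were found for 9 classes: endothelial (106 control and 411 STZ cells), pericyte or smooth muscle (96 and 149), Müller glia (1341 and 1068), pigment epithelium (53 and 195), rod (630 and 986), cone (782 and 913), rod bipolar (909 and 814), cone bipolar (809 and 1161) and amacrine cells (55 and 217). The markers of rods, cones, bipolar cells and Müller glia, which define the retina, each led at least 1 cluster. Levels are in CPM, the UMIs of a gene per 1000000 UMIs of the class in that library. The level in rod-like cells is used as the background of free RNA, except for vitronectin.

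Among these 9 classes, most matrix genes had their highest level in cells of the vessel wall, glia or pigment epithelium rather than in neurons. The level is per UMI of a class, so a class with many cells can still hold a large share of the UMIs of a gene. With the 2 libraries averaged, 31 of 32 genes had their highest level in a class that is not neuronal: 13 in pericyte or smooth muscle-like cells, 8 in pigment epithelium-like cells, 7 in Müller glia-like cells and 3 in endothelial-like cells. The exception was Tnc, the glycoprotein tenascin C, at a mean of 3.04 CPM in cone bipolar-like cells, which is too low to place. For 30 of the 32 genes the highest class was the same in both libraries. The exceptions were Hspg2, highest in endothelial-like cells in control and in pericyte or smooth muscle-like cells in STZ, and Dcn, highest in pericyte or smooth muscle-like cells in control and in Müller glia-like cells in STZ. For 19 genes the intervals of the highest and the next class were apart in both libraries.

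**Figure D1:**
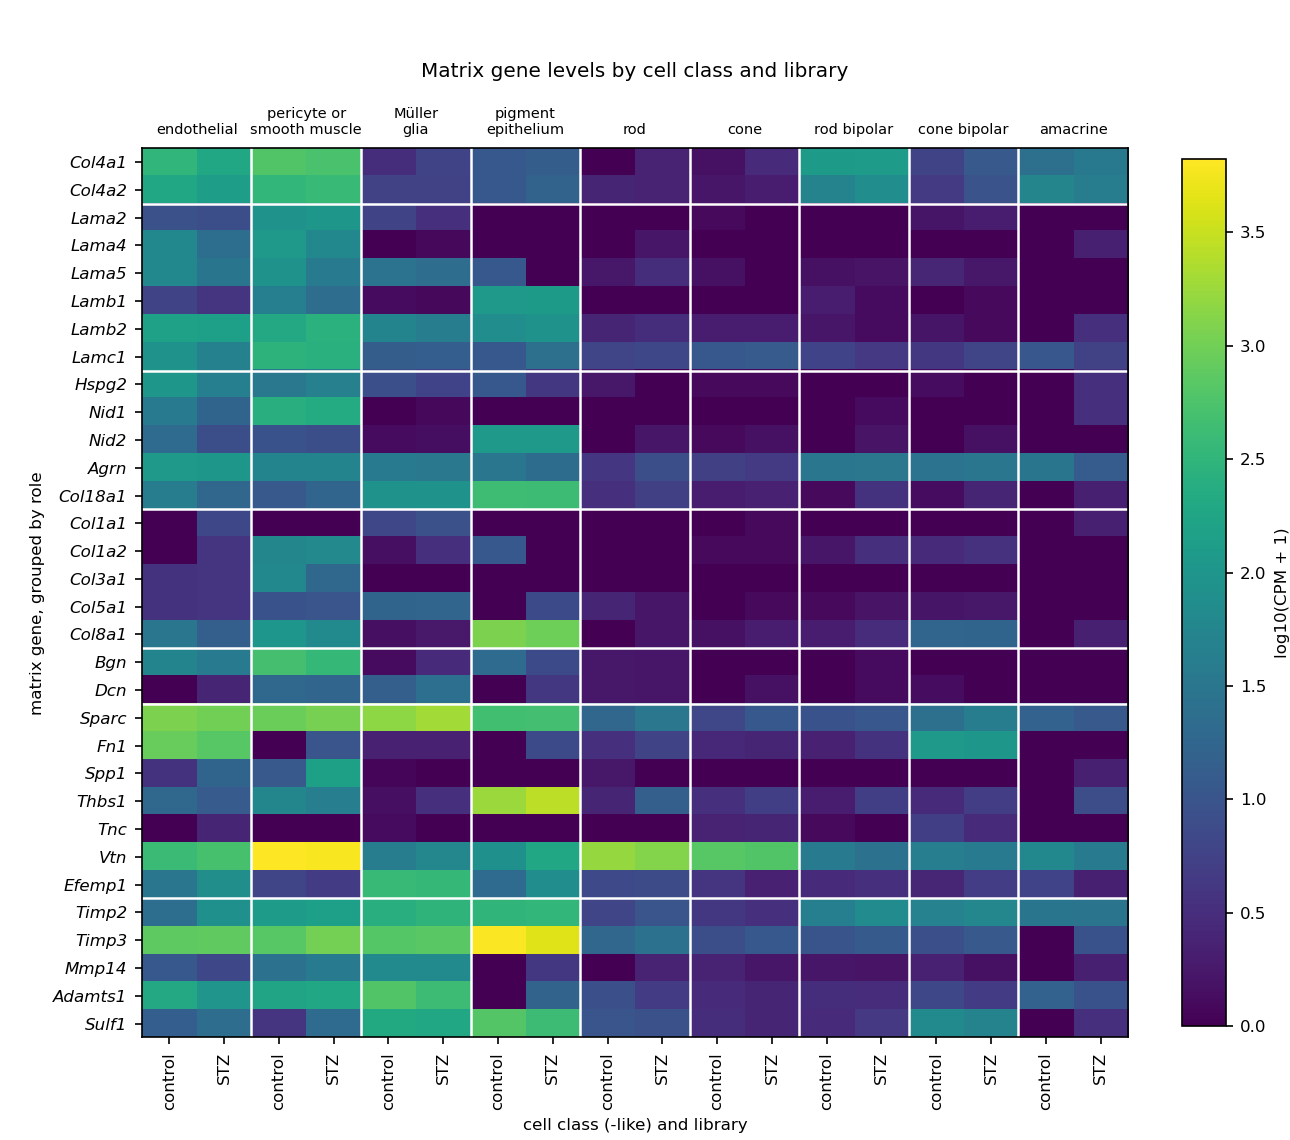
Level of each of the 32 matrix genes (rows, grouped by role) in 9 cell classes, each with the control and the STZ library (columns), as log10(CPM + 1). Bright cells mark high levels: Vtn in pericyte or smooth muscle-like and rod-like cells, Timp3 and Thbs1 in pigment epithelium-like cells, and Sparc in Müller glia-like cells.

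Collagen IV, whose chains Col4a1 and Col4a2 twist into 1 triple helix, had its highest levels in the vessel wall classes. Col4a1 stood at 607 CPM in control (interval 531 to 692) and 534 in STZ (474 to 599) in pericyte or smooth muscle-like cells. In endothelial-like cells it stood at 332 (277 to 395) and 191 (160 to 227). The third class was a neuron: rod bipolar-like cells had 119 CPM (109 to 130) and 129 (117 to 142), and 39.2% of them in control and 38.6% in STZ had a Col4a1 UMI. After each cell was thinned to 500 UMIs those shares were 7.37% and 6.14%. In rod-like cells Col4a1 stood at 0 CPM in control, where the limit set by 3 counts is 2.26 CPM, and at 1.43 CPM in STZ. The rod bipolar level of Col4a1 thus stood well above the level in rod-like cells. Col4a2 followed the same order of classes, with 340 and 371 CPM in pericyte or smooth muscle-like cells, 187 and 131 in endothelial-like cells, and 50.4 and 74.7 in rod bipolar-like cells. Of the UMIs in all kept cells, however, rod bipolar-like cells held 54.0% for Col4a1 in control and 40.2% in STZ, and 42.6% and 35.2% for Col4a2. Pericyte or smooth muscle-like cells held 24.8% and 26.6% for Col4a1, and 25.9% and 28.1% for Col4a2.

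The 2 genes lie head to head on chromosome 8 of mm10, Col4a1 at chr8:11198423-11312826 on the minus strand and Col4a2 at chr8:11312805-11449287 on the plus strand. They are shown because they were read in the same classes and share their start. In the GENCODE annotation the first bases of both transcripts overlap over 22 bases, chr8:11312805-11312826, given here from the plus strand. The 120 bases before the RefSeq start of Col4a2 (build GRCm38.p6, chr8:11312685-11312804, plus strand) follow, with a GC box and a CCAAT box in capitals.
Col4a1 and Col4a2 overlap: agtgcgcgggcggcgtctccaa
Col4a2 upstream: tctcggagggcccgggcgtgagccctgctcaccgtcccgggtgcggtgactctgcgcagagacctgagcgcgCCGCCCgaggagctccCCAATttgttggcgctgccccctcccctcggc
The 6 motifs below were searched on both strands in the 250 bases before each RefSeq start. The GC box GGGCGG was present in 32.7% of all 32851 windows and in 19 of the 28 windows of the 24 matrix genes in that table, and CCAAT in 33.8% and in 9 of 28. TATAAA was present in 12.4% and in 6 of 28, the AP-1 site TGANTCA in 6.75% and in 1, the CRX and OTX core TAATCC in 6.25% and in 2, and CACGTG in 6.02% and in 0. A match describes letters, not a bound site.

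Laminins are trimers of an alpha, a beta and a gamma chain. Lama2, an alpha chain of vascular and muscle basement membranes, had its highest level in pericyte or smooth muscle-like cells, at 89.1 CPM in control and 104 in STZ. The mean of both libraries was at most 7.54 CPM in any other class. Of its UMIs, these cells held 44% in control and 70.9% in STZ, and Müller glia-like cells, at a far lower level, 48% and 15.2%. Lamc1, the common gamma chain, averaged 279 CPM in pericyte or smooth muscle-like cells and 67.4 in endothelial-like cells. Lamb2, a beta chain of mature vessels and of the inner limiting membrane, averaged 239 CPM there and 150 in endothelial-like cells, with intervals that overlapped in at least 1 library. The beta chain Lamb1 was instead highest in pigment epithelium-like cells, at 114 CPM in control (57.0 to 204) and 118 in STZ (83.7 to 162), and averaged 32.7 in pericyte or smooth muscle-like cells. The vascular alpha chains Lama4 and Lama5 averaged 85.0 and 62.1 CPM in pericyte or smooth muscle-like cells and 41.5 and 44.4 in endothelial-like cells. Neither pair of classes was separated by its intervals in both libraries. Of the Lama5 UMIs, however, Müller glia-like cells held 73.6% in control and 62.8% in STZ, and pericyte or smooth muscle-like cells 12.6% and 11.0%. Müller glia-like cells also held 70.4% and 37.6% of the Lamb2 UMIs.

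The linkers split between the 2 sides of the retina. Nid1 (nidogen-1) averaged 243 CPM in pericyte or smooth muscle-like cells and 26.2 in endothelial-like cells. Nid2 (nidogen-2) had its highest level in pigment epithelium-like cells, 114 CPM in control and 115 in STZ, with 14.0 as the next mean. Col18a1, the collagen that carries endostatin, was also highest there, at 436 CPM (314 to 590) and 417 (350 to 494), and the next class was Müller glia-like cells at 88.2 and 89.3. Both pigment epithelium genes were close to level between libraries, but Nid2 rested on few UMIs, 25 in control and 59 in STZ over all kept cells. Under other processing settings the log2 ratio in this class ranged from -0.14 to 0.60 for Nid2 and from -0.48 to 0.52 for Col18a1. Hspg2 (perlecan) and Agrn (agrin) averaged 73.7 and 108 CPM in endothelial-like cells, and 38.4 and 51.6 in pericyte or smooth muscle-like cells.

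Fibrillar collagens, the rope-like collagens of connective tissue, were low. Col1a1 passed the minimum level in no class and averaged 6.64 CPM in its highest, Müller glia-like cells. Col1a2 (56.7 and 63.0 CPM) and Col3a1 (59.4 and 18.5 CPM) were measured in pericyte or smooth muscle-like cells only. Of the 6 fibroblast markers, Pdgfra, Fbln1 and Mfap5 were at 0 there in both libraries. Of the rest, 2 were detected in control and 3 in STZ. The sum over the list was 324 CPM in control and 308 in STZ, mostly from Ogn (308 and 269). Their part in these values was not tested. Col5a1 passed the minimum in Müller glia-like cells alone, at 16.3 and 16.7 CPM. Col8a1, a short-chain collagen of Bruch's membrane, was the large exception to these low levels, with 1153 CPM in control (949 to 1389) and 959 in STZ (855 to 1072) in pigment epithelium-like cells and a mean of 82.4 in pericyte or smooth muscle-like cells. Of the 2 leucine-rich proteoglycans, Bgn (biglycan) averaged 427 CPM in pericyte or smooth muscle-like cells and 43.4 in endothelial-like cells, while Dcn (decorin) averaged 18.7 CPM in Müller glia-like and 17.8 in pericyte or smooth muscle-like cells.

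The matricellular and adhesive genes were led by different classes. Vtn (vitronectin, a ligand of integrins) stood at 6642 CPM in control (6382 to 6910) and 6012 in STZ (5806 to 6222) in pericyte or smooth muscle-like cells, and next in rod-like cells at 1644 and 1288. Fn1 (fibronectin) stood at 850 CPM in control and 684 in STZ in endothelial-like cells, and at 0 and 9.26 in pericyte or smooth muscle-like cells. Thbs1 (thrombospondin-1, an inhibitor of vessel growth) averaged 2257 CPM in pigment epithelium-like cells and 49.6 in the next class. Each of these 3 genes was thus led by 1 class, a different one each time. Sparc (osteonectin, a collagen-binding protein) was spread over Müller glia-like (mean 1724), endothelial-like (1095) and pericyte or smooth muscle-like cells (1018). Efemp1 (fibulin-3) averaged 364 CPM in Müller glia-like and 54.2 in endothelial-like cells.

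Among the enzymes and inhibitors, Timp3, the metalloproteinase inhibitor that binds Bruch's membrane, averaged 5353 CPM in pigment epithelium-like cells and 866 in pericyte or smooth muscle-like cells. Timp2 averaged 327 CPM in pigment epithelium-like and 276 in Müller glia-like cells, which their intervals did not separate in both libraries. Mmp14, a membrane-bound metalloproteinase, stood at 64.9 CPM in control and 65.2 in STZ in Müller glia-like cells. Adamts1, a protease of proteoglycans, averaged 513 CPM in Müller glia-like cells. Sulf1, which trims sulfate groups from heparan sulfate, averaged 527 CPM in pigment epithelium-like and 200 in Müller glia-like cells. Glia and pigment epithelium thus led all 5 of these genes.

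In endothelial-like cells 7 of the 10 measured collagen IV, laminin, nidogen and heparan sulfate proteoglycan genes were at least 1.5-fold lower in the STZ library, while fibronectin, osteonectin and Timp3 moved less than 1.5-fold. To be measured, a gene needed a mean of at least 10 CPM and at least 20 UMIs in that class, and it was called higher or lower at 1.5-fold. Of the 20 matrix genes measured, 9 were lower and 3 higher in the STZ library, beside 16.5% and 17.9% of all 7143 genes measured in these cells. The median log2 ratio of STZ over control was -0.54 for the 20 genes and -0.02 for all genes, and 15 of the 20 lay below equal levels.

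Among the chains, Col4a1 went from 332 CPM in control to 191 in STZ, 1.74-fold lower (interval 1.35 to 2.23). Its partner Col4a2, at 187 and 131 CPM, was 1.42-fold lower (1.03 to 1.96) and did not reach the limit. Lama4 stood at 59.6 and 23.4 CPM, 2.55-fold lower (1.29 to 5.17). Lama5 stood at 59.6 and 29.2 CPM, 2.04-fold lower (1.07 to 3.92). The gamma chain was lower too. Lamc1 stood at 88.1 and 46.7, 1.89-fold lower (1.13 to 3.16). Lamb2, in contrast, was within 1.5-fold at 156 and 144 CPM.

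Of the linkers, Hspg2 stood at 104 CPM in control and 43.8 in STZ, 2.37-fold lower (1.44 to 3.94). Nid1 (36.3 and 16.1 CPM), Col18a1 (38.9 and 17.5 CPM) and the short-chain collagen Col8a1 (31.1 and 13.1 CPM) were 2.26-, 2.22- and 2.37-fold lower, on 9 to 15 UMIs per library and with intervals that include equal levels. Agrn stood at 111 and 104 CPM, and the leucine-rich proteoglycan Bgn at 51.9 and 35.0 CPM, 1.48-fold lower (0.776 to 2.80) and not called. The protease Adamts1 stood at 200 and 96.3 CPM, 2.07-fold lower (1.47 to 2.92). Fn1, at 850 and 684 CPM, was 1.24-fold lower, Sparc, at 1169 and 1020, was 1.15-fold lower, and Timp3 stood at 757 and 763.

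The 3 genes on the other side were Timp2, with 9 UMIs in control and 56 in STZ (23.3 and 81.7 CPM, 3.50-fold, 1.72 to 8.06), Efemp1, with 12 and 53 UMIs (31.1 and 77.4 CPM, 2.49-fold, 1.31 to 5.11), and Sulf1, with 5 and 15 UMIs (13.0 and 21.9 CPM, 1.69-fold, 0.583 to 5.94). Efemp1 is highest in Müller glia-like cells, and Timp2 and Sulf1 are highest in pigment epithelium-like and next in Müller glia-like cells. The 10 Müller glia markers summed to 2885 CPM in the control and 4108 CPM in the STZ endothelial-like cells. The part of that RNA in these 3 values was not tested beyond an alternative that subtracts free RNA. In it the log2 ratio of Timp2 was 1.88 and that of Efemp1 2.50, though neither gene kept the minimum level there.

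The endothelial-like cells of the libraries also differed in depth, with a median of 3340 UMIs in control and 970 in STZ, and 16.0% against 53.0% of cells under 1000 UMIs. The 8 rod markers summed to 1812 CPM in control and 3980 in STZ, the 8 cone markers to 480 and 2557, and the 6 erythrocyte markers to 2.59 and 5911. The 10 pericyte or smooth muscle markers, all detected in both libraries, summed to 1768 and 1108 CPM, and the 6 fibroblast markers to 205 and 123, of which Pdgfra made up 184 and 54.0. The 6 astrocyte markers, 5 of them detected in control and 6 in STZ, summed to 682 and 504 CPM. The part of that RNA in the lower matrix values was not tested. The 10 endothelial markers themselves stood at 16735 and 12229 CPM, 1.37-fold lower, and the share of UMIs estimated as free RNA was 27.5% and 58.0%. With cells of at least 1000 UMIs alone, 8 matrix genes were lower, and with levels scaled by the endothelial markers 6 were. With free RNA subtracted, or with cells thinned to 500 UMIs, 4 were. By ratio alone, whether or not the minimum level was kept, Lama4, Hspg2 and Adamts1 were at least 1.5-fold lower under each of the 15 alternatives that gave them a value. Timp2 and Efemp1 were at least 1.5-fold higher under each of their 15, but fell below the minimum level with free RNA subtracted. For Col4a1 the log2 ratio was -0.30 with free RNA subtracted and -0.34 when scaled by the endothelial markers, for Lamc1 -0.49 and -0.46, and for Lama5 -0.52 and -0.58, all short of 1.5-fold. A Col4a1 UMI was present in 51.9% of control cells (42.0% to 61.7%) and 19.2% of STZ cells (15.5% to 23.4%), and after thinning to 500 UMIs in 19.8% and 6.81%, against 0% and 0.203% of rod-like cells without thinning (median UMIs 1696.5 and 1170).

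**Figure D2:**
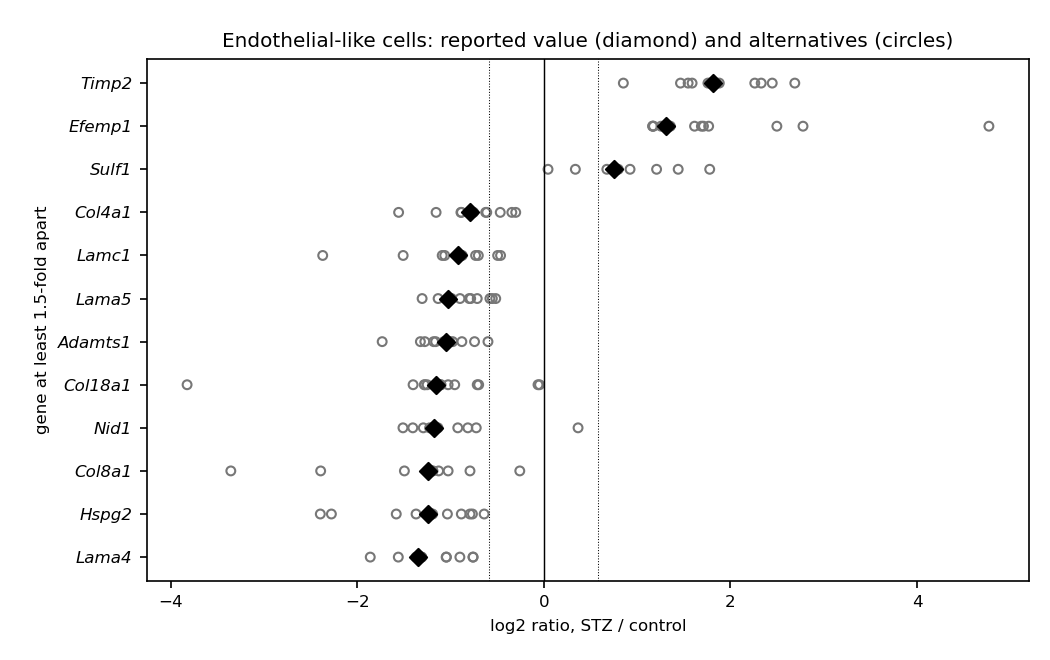
Log2 ratio of STZ over control in endothelial-like cells for the 12 matrix genes at least 1.5-fold apart, with the reported value (black diamond) and each alternative setting (open circle). Dotted lines mark 1.5-fold: all values of Lama4, Hspg2 and Adamts1 lie left of the left line, and 1 value of Nid1 lies right of 0.

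In pericyte or smooth muscle-like cells Col4a1, Col4a2 and Nid1 were within 1.5-fold between the libraries, and osteopontin stood apart. Of 23 matrix genes measured, 2 were higher and 5 lower in the STZ library, beside 12.8% and 11% of all 6263 genes measured. The median log2 ratio was 0.02 for the 23 genes and 0.01 for all genes. Median depth was alike, at 3631.5 UMIs per cell in control and 3374 in STZ, and the markers of this class summed to 32367 and 28492 CPM.

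Spp1, which encodes osteopontin, a secreted glycoprotein that binds integrins and CD44, had 4 UMIs in control and 81 in STZ. Its level was 10.8 CPM (2.94 to 27.6) in control and 150 CPM (119 to 187) in STZ, 13.9-fold higher (5.22 to 52.2). A UMI was found in 3 of 96 control cells (3.13%, 0.649% to 8.86%) and in 28 of 149 STZ cells (18.8%, 12.9% to 26.0%). After thinning to 500 UMIs the shares were 1.04% and 4.70%, and in rod-like cells 0.159% and 0% without thinning. The STZ signal was spread over cells, as the richest cell held 8 of the 81 UMIs. In endothelial-like cells Spp1 stood at 2.59 and 16.1 CPM, too low to count as measured. The log2 ratio in the 15 alternatives lay between 2.37 and 4.53.

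The cells of this cluster were then divided by whether pericyte markers (Kcnj8, Abcc9, Higd1b and Pdgfrb) or smooth muscle markers (Acta2, Myh11 and Tagln) held more UMIs, a division chosen after Spp1 had been seen. It gave 64 control and 96 STZ cells led by pericyte markers, and 31 and 53 led by smooth muscle markers, with 1 control cell tied. All Spp1 UMIs lay in the cells led by pericyte markers, which put the STZ level there at 289 CPM (229 to 359), and the 31 and 53 cells led by smooth muscle markers had 0 in both libraries, which allows up to 17.7 and 11.6 CPM at 3 counts per library. The 28 STZ cells with Spp1 had 7768 CPM of pericyte markers and 464 CPM of smooth muscle markers. The 121 STZ cells without it had 3519 and 12539. These 121 include all 53 STZ cells led by smooth muscle markers, so the contrast restates the division and adds nothing to it. Cells led by pericyte markers but without Spp1 were not read apart.

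Timp3 was the other higher gene, at 664 CPM in control (584 to 752) and 1067 in STZ (982 to 1158), 1.61-fold (1.38 to 1.87). The difference was present in both divisions, from 395 to 830 CPM in cells led by pericyte markers and from 948 to 1323 in cells led by smooth muscle markers. Its log2 ratio fell short of 1.5-fold with thinned cells (0.48) and at a clustering resolution of 2.0 (0.57). Sparc stood at 1104 and 1490 CPM in the first (1.35-fold, 1.14 to 1.60) and at 730 and 687 in the second. Col4a1 stood at 685 and 724 CPM in the first and at 507 and 328 in the second, where it was 1.54-fold lower (1.13 to 2.11). These differences between the divisions were not tested. Vtn was flat in cells led by pericyte markers, at 10905 and 10779 CPM, and stood at 1632 and 852 CPM in cells led by smooth muscle markers, 1.91-fold lower (1.60 to 2.29).

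**Figure D3:**
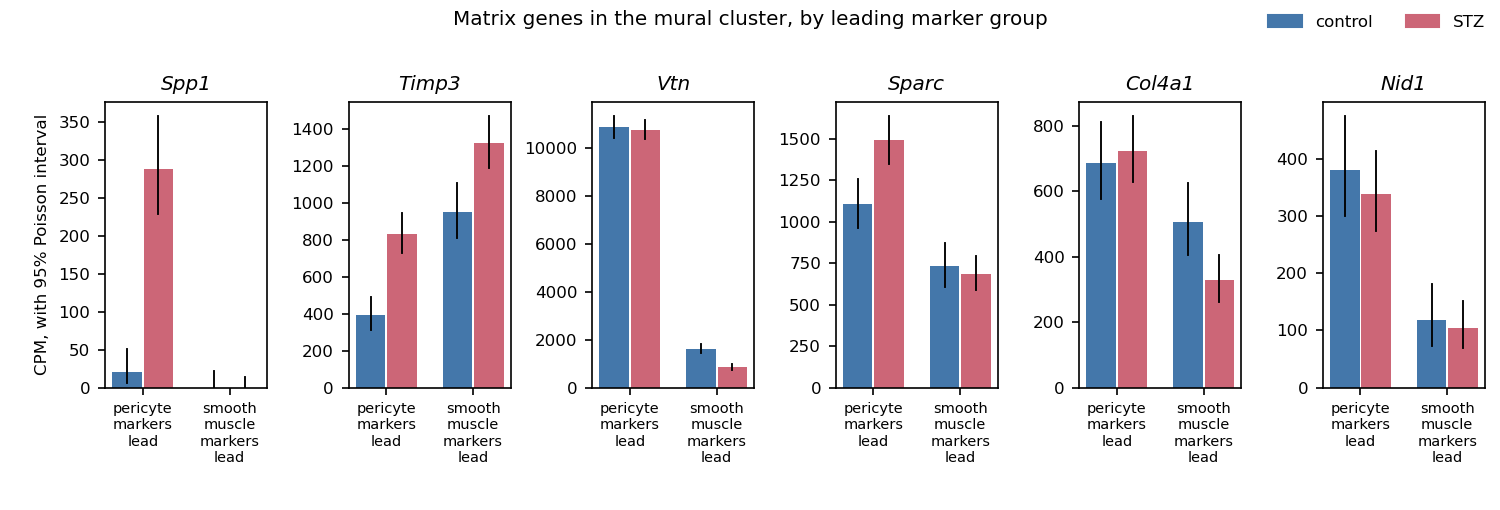
Level (CPM, bars from 0) of 6 matrix genes in the pericyte or smooth muscle-like cluster, divided by which marker group leads the cell, in control (blue) and STZ (red), with 95% Poisson intervals as lines. Spp1 is read in STZ cells led by pericyte markers, Timp3 is higher in STZ on both sides, and Nid1 overlaps between libraries on both sides.

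The 5 lower genes of this class were the laminin chains Lama4, Lama5 and Lamb1 and the collagens Col3a1 and Col8a1, while the alpha chain Lama2 was within 1.5-fold, at 89.1 and 104 CPM. Lama5 stood at 89.1 CPM in control (61.3 to 125) and 35.2 in STZ (21.2 to 55.0), 2.53-fold lower (1.40 to 4.71). Most of its UMIs in this class lay in cells led by smooth muscle markers, at 153 and 65.6 CPM. Lama4 stood at 111 and 59.3 CPM, 1.87-fold lower (1.15 to 3.06). Col3a1 stood at 59.4 and 18.5 CPM on 22 and 10 UMIs, 3.21-fold lower (1.46 to 7.58), while Col1a2 was level at 56.7 and 63.0. Lamb1 (43.2 and 22.2 CPM) and Col8a1 (99.9 and 64.8 CPM) also passed 1.5-fold, with intervals that include equal levels. Lama4 and Lama5 were thus lower in both classes of the vessel wall, which are separate cells of the same libraries. Within 1.5-fold were Col4a1 (607 and 534 CPM), Col4a2 (340 and 371), Nid1 (259 and 226), Lamc1 (294 and 263) and Lamb2 (202 and 276), and Bgn stood at 499 and 354, 1.41-fold lower (1.15 to 1.74).

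The 120 bases before a RefSeq start (GRCm38.p6) of each of the 3 genes that moved most in this class are printed. Capitals mark a match to a searched motif on either strand: a CCAAT box, read as ATTGG, for Spp1 (chr5:104434991-104435110, plus strand), TATAAA for Col3a1 (chr1:45311418-45311537, plus strand) and GC boxes for Lama5 (chr2:180225860-180225979, minus strand).
Spp1 upstream: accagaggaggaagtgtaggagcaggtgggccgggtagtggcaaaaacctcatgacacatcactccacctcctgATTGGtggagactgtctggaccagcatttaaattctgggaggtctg
Col3a1 upstream: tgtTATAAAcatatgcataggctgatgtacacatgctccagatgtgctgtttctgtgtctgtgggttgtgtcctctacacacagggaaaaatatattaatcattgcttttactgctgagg
Lama5 upstream: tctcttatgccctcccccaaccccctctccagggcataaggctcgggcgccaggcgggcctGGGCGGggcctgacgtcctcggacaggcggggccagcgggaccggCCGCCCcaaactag
Over 250 bases, G and C make up 43.6% of this Spp1 window, 35.2% of the Col3a1 window and 72.4% of the Lama5 window. Over that length the Spp1 window also holds TATAAA, as the Col3a1 window does. A second RefSeq start of Spp1, not printed, has 35.6% G and C in its window and no match.

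In Müller glia-like cells the matrix genes were close to level, on far more UMIs. Of 15 measured, 1 was higher and 0 lower in the STZ library, beside 5.03% and 2.92% of all 8893 genes measured, and the median log2 ratio was 0.02 against 0.03 for all genes. The higher gene was Dcn, at 13.2 CPM in control (10.6 to 16.1) and 24.3 in STZ (20.1 to 29.0), 1.84-fold (1.39 to 2.44). In cluster 9, 1 of the 4 Müller clusters, it stood at 10.3 and 34.1 CPM, and in the largest, cluster 8, at 15.8 and 16.8. When each cell had to show 500 genes and no more than 10% of its counts from mitochondria, its log2 ratio was 0.03.

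Sparc, with 10488 UMIs in control and 9620 in STZ, stood at 1487 CPM (1458 to 1515) and 1962 CPM (1923 to 2001), 1.32-fold higher (1.28 to 1.36). Vtn, at 40.7 and 57.5 CPM, was 1.41-fold higher (1.195 to 1.67), and rod markers in these cells summed to 1725 and 2829 CPM. The part of rod RNA in the Vtn value was not tested, and with free RNA subtracted no ratio could be had. Adamts1 was the lowest, at 613 CPM (595 to 632) and 414 CPM (396 to 432), 1.48-fold lower (1.41 to 1.56), just inside the limit. In cluster 9, whose leading genes include the immediate-early genes Fosb, Jun and Fos, Adamts1 stood at 1028 and 615 CPM, and in cluster 8 at 241 and 214. Under the stricter filter on cells its log2 ratio was -0.09.

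Another 7 genes were within 1.5-fold: Efemp1 (373 and 355 CPM), Timp3 (647 and 696), Timp2 (250 and 301), Sulf1 (208 and 192), Col18a1 (88.2 and 89.3), Mmp14 (64.9 and 65.2) and Lamb2 (52.6 and 40.0). The widest limits among these 7 ratios were 1.57-fold lower, for Lamb2, and 1.29-fold higher, for Timp2. Lama5, Agrn, Lamc1 and Col5a1, not among these 7, were within 1.5-fold too, with log2 ratios of -0.31, -0.19, 0.03 and 0.04.

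In pigment epithelium-like cells, which rest on Bruch's membrane, thrombospondin-1 was higher in the STZ library. Of 12 matrix genes measured, 3 were higher and 1 lower, beside 22.6% and 18.6% of all 3197 genes measured, so the share of members is near that of all genes. The median log2 ratio was 0.04 against -0.00 for all genes. Thbs1 stood at 1776 CPM in control (1520 to 2063) and 2737 in STZ (2559 to 2924), 1.54-fold (1.31 to 1.83). Vtn stood at 83.1 CPM on 8 UMIs and 190 CPM on 61 UMIs, 2.29-fold (1.09 to 5.53), and rod markers in these cells summed to 3220 and 5222 CPM, whose part in it was not tested. Efemp1, on 2 and 24 UMIs, stood at 20.8 and 74.7 CPM, a ratio of 3.60 (0.893 to 31.4) that includes equal levels. With free RNA subtracted no ratio could be had for Vtn or Efemp1, nor for Efemp1 with cells thinned to 500 UMIs.

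Sulf1 was the lower gene, at 634 CPM (485 to 814) and 420 CPM (352 to 498), 1.51-fold (1.10 to 2.05). Timp3 stood at 6337 CPM (5844 to 6860) and 4369 CPM (4143 to 4604), 1.45-fold lower (1.32 to 1.60). Both genes and the 8 pigment epithelium markers, which summed to 26489 and 20687 CPM (1.28-fold lower), were lower in STZ, and the share estimated as free RNA was 48.9% in control and 76.1% in STZ. With free RNA subtracted the log2 ratio of Timp3 was 0.03, that of Sulf1 -0.06 and that of Thbs1 1.22. The lower values of Timp3 and Sulf1 thus did not hold in that alternative, while Thbs1 was farther apart. Thinned to 500 UMIs, Thbs1 had a log2 ratio of 0.29 and Vtn 0.44, both short of 1.5-fold.

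**Figure D4:**
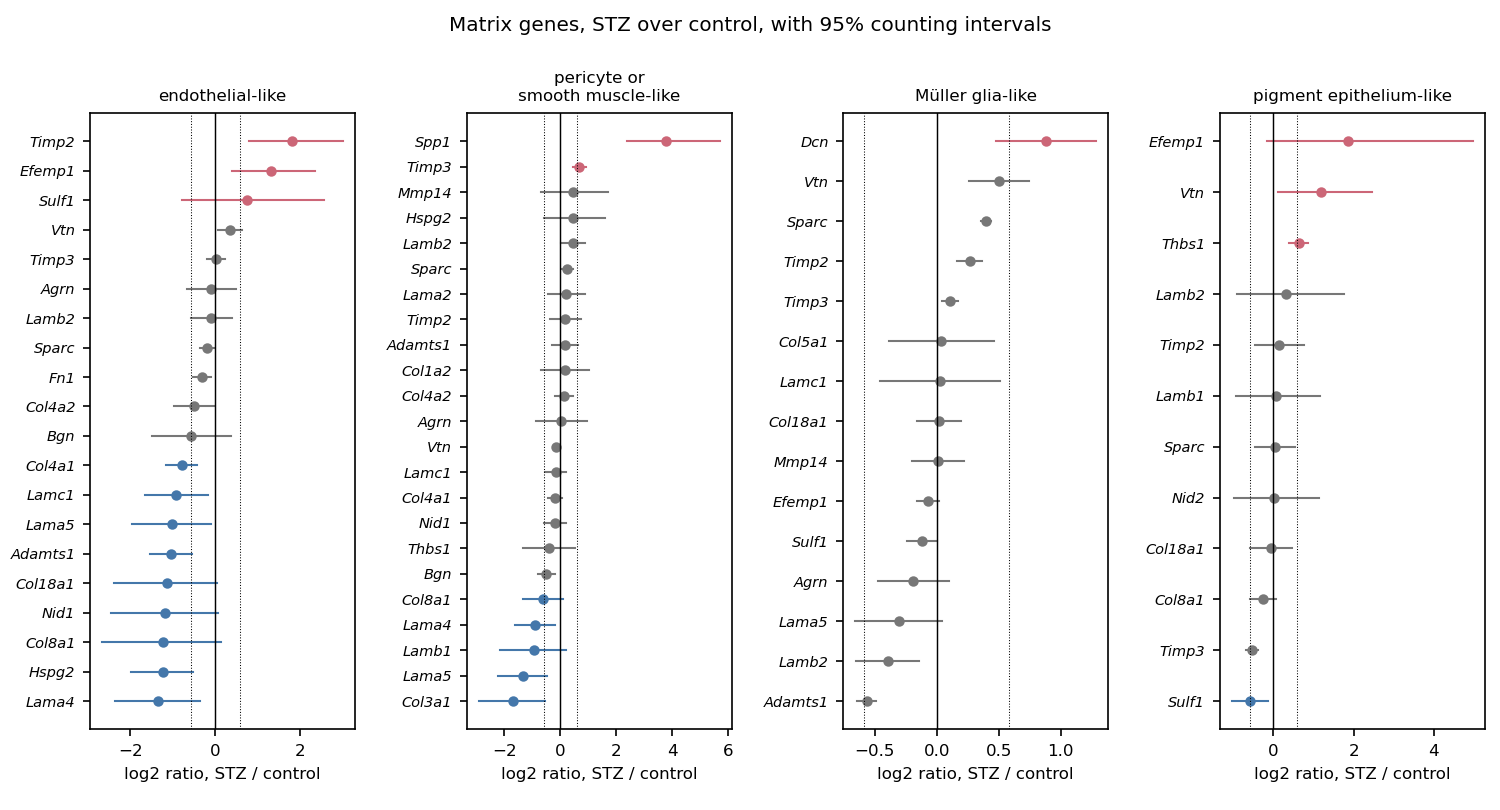
Log2 ratio of STZ over control for the matrix genes measured in endothelial-like (20 genes), pericyte or smooth muscle-like (23), Müller glia-like (15) and pigment epithelium-like cells (12), with 95% counting intervals as lines and dotted lines at 1.5-fold. Red marks genes at least 1.5-fold higher in STZ and blue those at least 1.5-fold lower, with the blue genes mostly endothelial and Spp1 the farthest point in the second panel.

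Neurons held few of these genes, and several of those were read mainly in some neuronal classes or clusters. Vtn was a photoreceptor gene, at 1644 CPM in control (2183 UMIs) and 1288 in STZ (1802 UMIs) in rod-like cells and 670 and 611 in cone-like cells. Col4a1 and Col4a2 were read in rod bipolar-like cells, as given above, and Fn1 in 2 of the cone bipolar clusters, with 325 and 267 CPM in cluster 13 (which also shows Pcdh17 and Igfn1) and 150 and 176 CPM in cluster 2, against 2.26 and 5.00 CPM in rod-like cells. Sulf1 stood at 313 and 174 CPM in the unnamed cluster 7, whose leading genes are Cck and Cnmd, and at 174 and 125 in cone bipolar cluster 3. Tnc reached 14.8 and 7.73 CPM in that same cluster 3, and Thbs1 38.4 and 49.9 CPM in the unnamed cluster 12. Others were not so divided: Agrn stood at 30.9 and 32.1 CPM in rod bipolar-like and 27.3 and 31.1 in cone bipolar-like cells, and Timp2 at 43.8 and 68.7 and at 49.2 and 57.1.

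**Figure D5:**
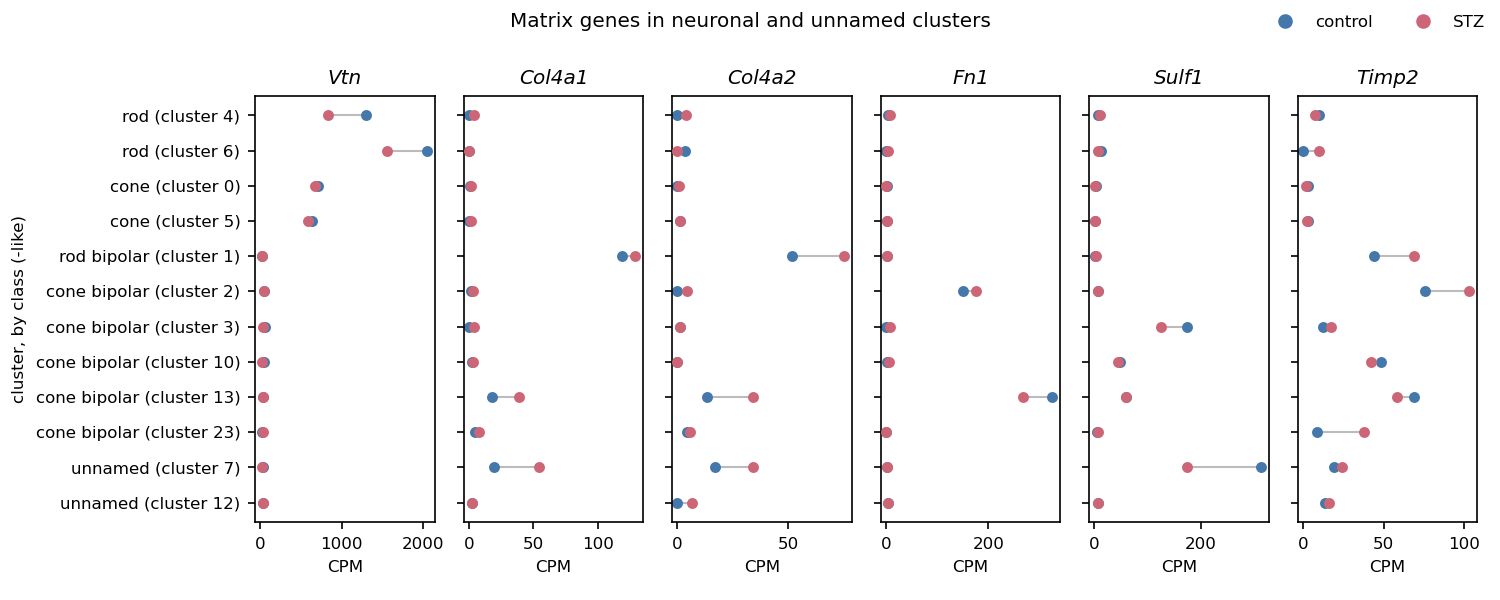
Level (CPM) of 6 matrix genes in neuronal and unnamed clusters with at least 50 cells in both libraries, control (blue) and STZ (red) joined by a line. Vtn is high in rod- and cone-like clusters, Col4a1 and Col4a2 in rod bipolar cluster 1, Fn1 in cone bipolar clusters 2 and 13, and Sulf1 in clusters 3 and 7.

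Between libraries, neurons differed in few matrix genes. In rod bipolar-like cells 1 of 6 measured was higher and 0 lower, beside 5.02% and 5.75% of all genes there. That gene was Timp2, at 43.8 and 68.7 CPM (1.57-fold, 1.28 to 1.92), followed by Col4a2 at 50.4 and 74.7 CPM (1.48-fold, 1.23 to 1.79). In cone bipolar-like cells 1 of 7 was higher (Sparc) and 0 lower, beside 4.41% and 4.76%, and in rod-like cells 1 of 3 was higher (Sparc) and 0 lower, beside 7.56% and 9.31%. Sparc there, at 24.7 and 40.4 CPM in cone bipolar-like and 17.3 and 31.5 in rod-like cells, was low beside the mean of 1724 CPM in Müller glia-like cells. In cone-like cells 0 of 2 were 1.5-fold apart (5% of all genes higher and 3.03% lower), and in amacrine-like cells 0 of 4 were higher and 1, Vtn on 12 and 30 UMIs, was lower (15.9% and 13.5% of all genes). Most control rod-like cells were in cluster 4 and most STZ ones in cluster 6, and Vtn stood at 1305 and 830 CPM in the first and at 2046 and 1556 in the second.

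The genes that fold, crosslink and sense the matrix were read from 6 further lists. In endothelial-like cells, 0 of 15 measured genes of TGF-beta signalling, the main pathway that drives matrix synthesis, were higher and 9 were lower, with a median log2 ratio of -0.71, beside 17.9% of all genes higher, 16.5% lower and a median of -0.02. Smad7, an inhibitor of the pathway, stood at 399 CPM in control and 182 in STZ (2.19-fold lower, 1.72 to 2.79), Eng (endoglin, a co-receptor) at 604 and 314 (1.93-fold lower, 1.59 to 2.33), and Ltbp4, which holds latent TGF-beta in the matrix, at 550 and 282. Of 13 collagen folding and crosslinking genes, 1 was higher and 6 were lower, with a median of -0.31. P4ha1, a subunit of prolyl hydroxylase, stood at 98.5 and 36.5 CPM (2.70-fold lower, 1.59 to 4.67) and Serpinh1, the collagen chaperone, at 179 and 73.0 (2.45-fold lower, 1.68 to 3.60). Of 16 matrix receptors 3 were higher and 4 lower, close to the shares of all genes. Among the lower were Cd93 at 345 and 117 CPM (2.95-fold lower, 2.22 to 3.95) and the laminin receptor chain Itga6 at 293 and 185 (1.58-fold lower). The 10 endothelial markers were themselves 1.37-fold lower in STZ, and the share estimated as free RNA was 27.5% in control and 58.0% in STZ. Their part in the endothelial values of these lists was not tested.

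The folding genes were also read in the other classes. In pericyte or smooth muscle-like cells P4ha1 stood at 108 and 50.02 CPM (2.16-fold lower, 1.29 to 3.66) and Serpinh1 at 318 and 187 (1.70-fold lower, 1.29 to 2.24), although 3 of the 18 genes of that list were higher and 2 lower, near the 12.8% and 11% of all genes. In Müller glia-like cells P4ha1 stood at 76.3 and 46.7 CPM (1.63-fold lower, 1.40 to 1.91) and Plod2, a lysyl hydroxylase, at 89.9 and 57.9 (1.55-fold lower, 1.35 to 1.79), with 0 of 18 higher and 2 lower, beside 5.03% and 2.92% of all genes. Serpinh1 stood there at 72.1 and 48.9 CPM, within 1.5-fold, and in pigment epithelium-like cells P4ha1 was instead 1.80-fold higher, at 41.6 and 74.7 CPM on 4 and 24 UMIs (0.618 to 7.13). Within the pericyte or smooth muscle-like class, Sparcl1, a relative of Sparc, stood at 2216 and 3366 CPM (1.52-fold higher, 1.40 to 1.65), and the laminin receptor Bcam at 399 and 254 (1.57-fold lower).

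In Müller glia-like cells Ctgf, a matricellular target of TGF-beta, stood at 446 CPM in control and 253 in STZ (1.76-fold lower, 1.65 to 1.88) and Id1 at 394 and 230 (1.71-fold lower, 1.60 to 1.84), the 2 lower of 12 TGF-beta genes, with 0 higher. Beside this and the other lists in Müller glia-like cells, 5.03% of all genes measured were higher and 2.92% lower. The 2 higher of 12 receptors, with 0 lower, were integrin chains, Itgav at 133 and 205 CPM (1.54-fold, 1.41 to 1.69) and Itgb8 at 94.0 and 146 (1.55-fold, 1.40 to 1.73), which pair into a receptor that activates TGF-beta. The secreted protease Htra1 stood at 246 and 418 CPM (1.70-fold, 1.59 to 1.81), 1 higher of 12 proteases and inhibitors. Col2a1, a collagen of the vitreous, stood at 215 and 142 CPM (1.51-fold lower, 1.38 to 1.66), and Col9a1 at 328 and 452 was within the limit. In pigment epithelium-like cells Itgb8 was instead lower in STZ, at 5132 and 2706 CPM (1.90-fold lower, 1.69 to 2.12). It was the 1 lower of 9 receptors, with 0 higher, beside 18.6% of all genes lower and 22.6% higher in these cells. The share estimated as free RNA there was 48.9% in control and 76.1% in STZ, and its part in the Itgb8 value was not tested. Fbln5 and Fbn1, proteins of elastic fibres, stood there at 83.1 and 224 CPM (2.70-fold, 1.30 to 6.49) and at 104 and 209 (2.01-fold, 1.03 to 4.38), on 8 and 10 control UMIs.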

How the data were processed

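The authors' deposited table held raw UMI counts, whole numbers for 17087 genes in 19562 cells, with the library in the ending of each cell name. Per the submitters' processing notes, Cell Ranger 3.0.1, Seurat 3.0 and build mm10 were used. Settings are not given in the sources used here. The genes, lists and classes were chosen with earlier results of these data known.

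Cells were kept from 200 genes upward and up to 20% mitochondrial counts (25.7% of control and 28.5% of STZ cells were removed by the latter). Scrublet (scanpy 1.11.5) removed 37 control cells (0.695%) at its automatic threshold. In STZ it called 0%, so the 628 highest scores (7.09%) were removed. Clustering used 2000 variable genes without the 32, scaling within libraries, 30 principal components, 15 nearest neighbours and a Leiden resolution of 1.0. A cluster was named where at least 3 markers of a class led it and its top 10 genes did not favour another class. Those left unnamed held 464 control and 2204 STZ cells.

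Counts were summed per class and library and scaled to CPM. Intervals are Poisson for sums, Clopper-Pearson for shares and conditional binomial for ratios. Only the ratio intervals were tested, on simulated Poisson counts, so that check does not cover the spread between cells or animals. A count of 0 has a limit of 3 counts. Named are matrix genes measured in the first 4 classes, those at least 1.5-fold apart elsewhere, and up to 4 genes per further list with at least 50 UMIs. Gene positions are from GENCODE M21, promoters from RefSeq (GRCm38.p6).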

Additional observations from a re-analysis of the deposited data

How the results depend on the processing

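With 17 alternatives (14 planned, 3 added after seeing the data: cells of at least 1000 UMIs, the unnamed endothelial and leukocyte cluster added, and scaling by a class's own markers), the number of genes highest in a non-neuronal class was 31 throughout. Of 1037 alternative ratios of single genes, 932 stayed inside the counting interval, 104 moved beyond it and 1, of a gene called at 1.5-fold, changed sign: Nid1 in endothelial-like cells, with cells thinned to 500 UMIs (log2 ratio 0.37). Counting also the values under 1.5-fold, 88 had the other sign, spread over 32 of the 70 values tried. No value could be had for 13.

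Counts at 1.5-fold that moved over 1.5 times follow. A gene must also keep the minimum level in each setting, so a count can drop while the ratio stays, as for Timp2 and Efemp1 with free RNA subtracted in endothelial-like cells and Spp1 with thinning (log2 ratio 2.37), and the cause was not tested where the setting does not itself reduce the UMIs. In endothelial-like cells, 1 gene was higher under the stricter filter and 0 with free RNA subtracted. There 5 were lower under the stricter filter, and 4 with thinning, with free RNA subtracted and at a minimum of 50 CPM. In pericyte or smooth muscle-like cells, 1 was higher at resolution 2.0, 0 with thinning, 4 with a mean over cells, with free RNA subtracted and with no minimum CPM, and 5 when scaled by own markers. There 0 were lower with thinning and 3 at a minimum of 50 CPM. In Müller glia-like cells, 2 were higher with doublets kept, at resolution 2.0, with the 32 genes kept in clustering, with a gate on single cells and with free RNA subtracted, 3 with thinning, 0 at a minimum of 50 CPM and 6 with no minimum. There 1 was lower with doublets kept, at resolution 2.0, with the 32 genes kept, with the gate, with a mean over cells, with thinning and when scaled by the median ratio, and 2 with no minimum. In pigment epithelium-like cells, 0 were higher with thinning and 5 with free RNA subtracted. There 0 were lower with no filter, under the stricter filter, at resolution 0.5, with the 32 genes kept, with the gate, without mitochondrial genes, at 1000 UMIs and when scaled by own markers, and 2 with a mean over cells, with thinning and with no minimum.

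Pooled retinas, 1 library per group and an STZ library of lower depth limit every comparison. No paired analysis was possible because each group has 1 library.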

Other observations

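Microglia-like cells, 13 in control and 25 in STZ and so outside the comparison, had Sparc at 2764 CPM in control and 1742 in STZ, and Timp2 at 482 and 554 CPM. Their Adamts1 stood at 45 UMIs in control and 5 in STZ. Leukocyte-like cells, 30 and 89 in number, had Sparc at 1199 and 792 CPM and Timp2 at 423 and 567.

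The unnamed cluster 11, which has 15 cells of the control library (median 836 UMIs) and 1730 of the STZ library (702.5), is led by no class. Sparc stood there at 705 CPM in STZ. Cluster 25, unnamed, held 0 control and 41 STZ cells with both endothelial and leukocyte genes.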
